A study of Mus musculus with 24 samples.

Results

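The arrays of STAT6-KO mice compared CD11b+ cells of the spleen with CD11b+ cells of the bone marrow. They were chosen by their genotype label. Of the 24 arrays of the series, 6 were used, namely 3 of spleen and 3 of bone marrow, matched at control, 2 weeks, and 4 weeks after myocardial infarction (MI). The STAT6-KO bone marrow file at 1 week held too few spots to be scaled, so that time point had no pair. The mice of all 6 groups were male STAT6-KO mice on a Balb/C background, 10 weeks old, which carry no functional STAT6 in any cell. The control groups had no MI, and the other groups were sacrificed 2 or 4 weeks after it. WT arrays of both tissues at the same 3 time points, 6 in all, served to show where the tissue difference of STAT6-KO mice departed from that of WT mice. Each array held RNA from cells pooled from 5 mice and each condition had 1 array, so the 3 time points served as the replicates of the tissue difference. The p-values therefore measure the spread between time points and say nothing of the spread between mice.

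CD11b, encoded by Itgam, is an integrin chain on neutrophils, monocytes, macrophages, and some dendritic cells and lymphocytes. Bone marrow is where neutrophils are made. Their precursors fill primary granules first and secondary and tertiary granules later, and divide until they reach the stages that only mature. The spleen holds stored monocytes, mature neutrophils, the red pulp macrophages that clear old red cells, dendritic cells, and many lymphocytes. STAT6 carries the signal of IL-4 and IL-13 into the nucleus, where it switches on type 2 genes of macrophages and B cells. In bulk RNA, fewer cells of a type and less RNA per cell cannot be told apart, and this holds for every value that follows.

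Levels are given as log2 of the spot signal minus the 75th percentile of the same array, so that 0 is the level of a bright spot and a value near -8 lies at the background of the array. A difference is the level in spleen minus that in bone marrow, as the mean over the 3 pairs with its standard error (SE). On the 6 arrays the 75th percentile ranged from 928 to 1763 in signal, and 75.1 to 79.8% of spots passed the scanner software's test of standing well above background. Each slide held 1 genotype and 1 tissue, so tissue and slide cannot be told apart here, and the order of positions was the same on every slide, so that time and position cannot be told apart either. The Stat6 probe with the highest level lay between 1.76 and 2.44 on the 6 arrays and on the spleen array at 1 week, against 2.38 to 3.70 on the WT arrays. On the other probes of Stat6, the STAT6-KO spleen array at 4 weeks read 0.73 and 0.20, within the range of the WT spleen arrays. All other STAT6-KO arrays lay below every WT array of their tissue on these probes. Which exons these probes cover was not examined, so the label was not tested by them beyond these levels. Xist, the RNA that coats the silenced X of female cells, was well above background on 1 of its probes at control in STAT6-KO spleen and bone marrow (-2.06 and -3.18). On that probe it was not well above background at 2 and 4 weeks. The other Xist probe read -4.12, -6.07, and -6.06 in spleen and -3.51, -5.08, and -5.44 in bone marrow. It was well above background on all of these but spleen at 4 weeks, and on some WT arrays. The labels call all mice male. Of 4 Y-linked genes, 0 differed between the tissues (limma, adjusted p under 0.05). Counts are therefore given with and without the control pair.

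Over the 25690 genes and transcripts tested, 3250 were higher and 5478 were lower in STAT6-KO spleen than in bone marrow, which is 12.7 and 21.3% of all (34.0% in either direction). The median difference of all tested genes was -0.26. Quantile normalization moved this median to -0.06 and the split to 4212 higher and 4537 lower, normexp background correction to -0.11 with 2767 higher and 3225 lower, and median scaling to -0.08 with 3923 higher and 4604 lower, so the excess of lower genes depends on the scaling. With the control pair left out, 731 genes were higher and 1071 lower. The 3 spleen arrays lay above all 3 bone marrow arrays for 19.6% of the genes and below all 3 for 34.8%. Counts of list members below are to be read against these shares. The lists hold genes of 1 cell type or process each, and the plot of list members shows 22 of them.

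**Figure D1:**
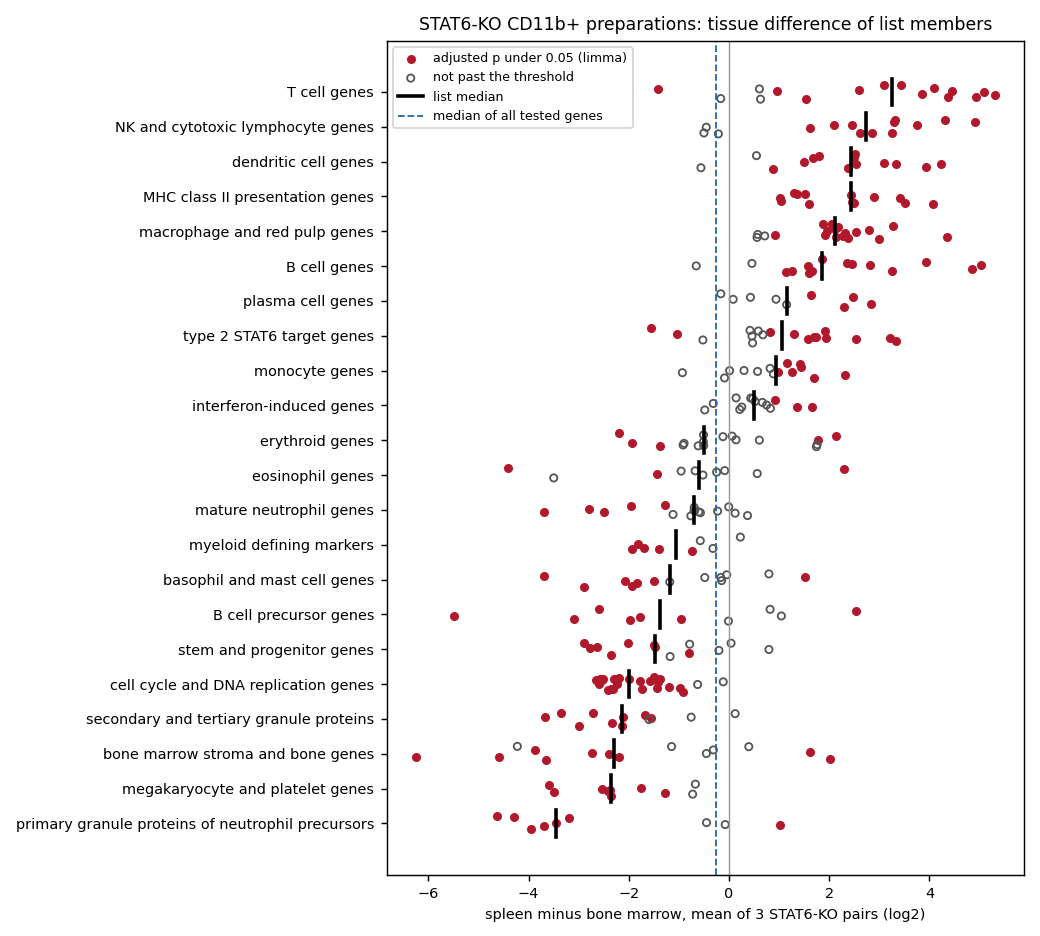
Difference between STAT6-KO spleen and bone marrow (log2, x axis) for the tested members of 22 gene lists (rows), each point 1 gene as the mean of 3 pairs, filled where the limma adjusted p was under 0.05. Black bars are list medians, from -3.46 for primary granule proteins to 3.26 for T cell genes, and the dashed line is the median of all tested genes at -0.26.

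The listed myeloid markers, of which only Itgam encodes the antigen of the sort, were present in both tissues, and several were lower in spleen. All 8 markers were well above background on all 6 arrays. Itgam itself read 4.23, 4.11, and 3.52 in spleen at control, 2 weeks, and 4 weeks, against 5.85, 5.74, and 5.71 in bone marrow. The ranges did not overlap, and Itgam was 3.52-fold lower in spleen (difference -1.81, SE 0.23, adjusted p = 0.00769). Itgb2, the chain that pairs with CD11b, fell by 1.40 (SE 0.24, adjusted p = 0.0141), and Lyz2, which encodes the lysozyme of myeloid cells, fell by 1.94 (SE 0.23, adjusted p = 0.00690). Ptprc, which encodes the CD45 antigen of all leukocytes, did not pass the test (0.23, SE 0.20, adjusted p = 0.417). In all, 5 of the 8 markers were lower and 0 were higher, with a list median of -1.07. When the control pair was dropped, the median was -1.12 and 0 of the 8 passed.

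The genes that neutrophil precursors use to fill their primary granules were much lower in STAT6-KO spleen. Of 9 measured members, 6 were lower and 1 was higher, with a median of -3.46. Elane, which encodes neutrophil elastase, read 0.78, 0.43, and -0.92 in spleen and 4.81, 4.32, and 5.05 in bone marrow. Its difference of -4.63 (SE 0.47, adjusted p = 0.00537) was the largest fall of the list, 24.7-fold. Mpo, which encodes myeloperoxidase, read 2.67, 2.40, and 0.37 in spleen and 5.34, 5.02, and 5.45 in bone marrow, a difference of -3.46 (SE 0.55, adjusted p = 0.0119). In both genes the spleen array at 4 weeks was the lowest, by over 1 on the log2 scale. Prtn3, which encodes proteinase 3, fell by 3.96 (SE 0.31, adjusted p = 0.00421). The member that rose was Ctsc (1.01, SE 0.21, adjusted p = 0.0224), which encodes cathepsin C, a protease that activates the granule proteases and is also made by macrophages and cytotoxic lymphocytes. In the 2 later pairs alone, 6 members were lower and 0 higher.

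Secondary and tertiary granule genes, which come on later in neutrophil maturation, were lower too. Of 12 measured members 9 were lower and 0 were higher, with a median of -2.13. Ngp, which encodes a granule protein of late neutrophil precursors, read 4.01, 3.86, and 3.75 in spleen against 6.71, 6.74, and 6.34 in bone marrow. The gap of -2.72 (SE 0.21, adjusted p = 0.00415) was far wider than the range within either tissue. Ltf, which encodes lactoferrin, fell by 1.68 (SE 0.20, adjusted p = 0.00709), and Cd177, a neutrophil surface protein stored in these granules, fell by 3.68 (SE 0.37, adjusted p = 0.00535). Camp, which encodes the cathelicidin peptide, did not pass (-0.76, SE 0.27, adjusted p = 0.0863). Without the control pair 5 members were lower.

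Genes of mature neutrophils showed smaller differences. Of 16 measured, 5 were lower and 0 were higher, with a median of -0.70, and 11 did not pass. Csf3r, which encodes the receptor for G-CSF, read 6.26, 5.59, and 6.11 in spleen and 5.90, 6.22, and 5.86 in bone marrow. The tissues overlapped (-0.01, SE 0.28, adjusted p = 0.988). Cxcr2, the chemokine receptor that draws mature neutrophils out of the marrow, differed by 0.37 (SE 0.25, adjusted p = 0.302). Mmp9, a protease stored in tertiary granules, was lower by 2.49 (SE 0.33, adjusted p = 0.00816), and Itgb2l, an integrin chain of neutrophils, fell by 3.70 (SE 0.51, adjusted p = 0.00884). With the control pair left out, 4 members were lower.

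Genes of cell division and DNA replication were lower in STAT6-KO spleen almost throughout. Of 25 measured members 23 were lower and 0 were higher, with a median of -2.0 and a range from -2.66 to -0.12. Mki67, the proliferation marker Ki-67, read 1.98, 2.35, and 1.28 in spleen and 4.25, 3.98, and 4.07 in bone marrow, a difference of -2.23 (SE 0.29, adjusted p = 0.00792). Top2a, which encodes the topoisomerase of dividing cells, read -2.38, -1.82, and -2.44 in spleen and 0.51, 0.35, and 0.28 in bone marrow, a difference of -2.59 (SE 0.24, adjusted p = 0.00490). For both genes the 3 spleen arrays lay well below the 3 bone marrow arrays. The cyclin genes Ccnb1 and Ccne2, which act at mitosis and at entry into DNA synthesis, fell by 2.54 (SE 0.26, adjusted p = 0.00540) and 2.66 (SE 0.27, adjusted p = 0.00531). When the control pair was dropped, the median was -2.05, and 8 members passed, all lower.

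Promoters of these genes are shown because 23 members of the list moved in 1 direction. Sequences were taken from a RefSeq table on the GRCm38.p6 build, which comes from another mouse strain than Balb/C and held a promoter of 300 bases around the transcription start for 21 of the 25 genes. The Y box or CCAAT box was searched as ATTGG on both strands, and the cell cycle homology region as TTTGAA on both strands. A CCAAT box was found in 18 of the 21 genes, against 37.4% of all 32851 promoters, and TTTGAA in 9 of the 21, against 17.9%. A gene was counted if any of its promoters in the table matched, while the shares of all are per promoter. The 2 are therefore not in the same unit, which favours the list. The letters were chosen after these promoters had been read, and a match is no evidence of binding. Capitals mark the motifs in stretches of the Ccnb2, Cdc20, and Plk1 promoters, which encode a mitotic cyclin, an activator of the anaphase-promoting complex, and a mitotic kinase.
Ccnb2 (chr9:70421525-70421741, - strand): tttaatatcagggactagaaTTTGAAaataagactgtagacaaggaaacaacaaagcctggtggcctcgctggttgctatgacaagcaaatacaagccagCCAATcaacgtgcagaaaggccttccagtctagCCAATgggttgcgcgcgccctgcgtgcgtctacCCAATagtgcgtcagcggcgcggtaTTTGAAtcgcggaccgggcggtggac
Cdc20 (chr4:118437327-118437416, - strand): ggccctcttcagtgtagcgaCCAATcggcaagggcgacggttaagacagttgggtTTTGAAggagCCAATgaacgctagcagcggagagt
Plk1 (chr7:122159401-122159484, + strand): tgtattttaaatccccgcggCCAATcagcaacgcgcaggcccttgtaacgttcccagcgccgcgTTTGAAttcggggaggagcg
Ccnb2 differed by -2.33 (SE 0.26), Cdc20 by -2.25 (SE 0.27), and Plk1 by -2.19 (SE 0.29), with adjusted p of 0.00610, 0.00669, and 0.00812. All 9 genes with TTTGAA were also among those with a CCAAT box. These 3 were picked from those 9 after their values were seen.

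Among genes of stem cells and progenitors, 8 of 13 were lower and 0 were higher, with a median of -1.49. Cd34, a surface protein of progenitors, fell by 2.35 (SE 0.33, adjusted p = 0.00884), and Erg, a transcription factor of stem cells and megakaryocytes, fell by 2.89 (SE 0.28, adjusted p = 0.00505). Kit, the receptor for stem cell factor, and Meis1, a homeobox factor of stem cells, did not pass (0.80 and 0.04, adjusted p = 0.0580 and 0.895). Transcription factors of the granulocyte line were split. Cebpe, which drives the secondary granule genes, fell by 2.44 (SE 0.33, adjusted p = 0.00832), while Cebpa, Cebpb, and Cebpd differed by between -0.50 and -0.44 and did not pass. Of the 21 transcription factors listed 9 were higher and 4 lower, and 3 and 1 without the control pair. The largest rise was that of Tbx21, which encodes T-bet of NK cells and type 1 T cells (3.76, SE 0.22, adjusted p = 0.00390). In the 2 later pairs alone, 4 of the 13 progenitor genes were lower.

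**Figure D2:**
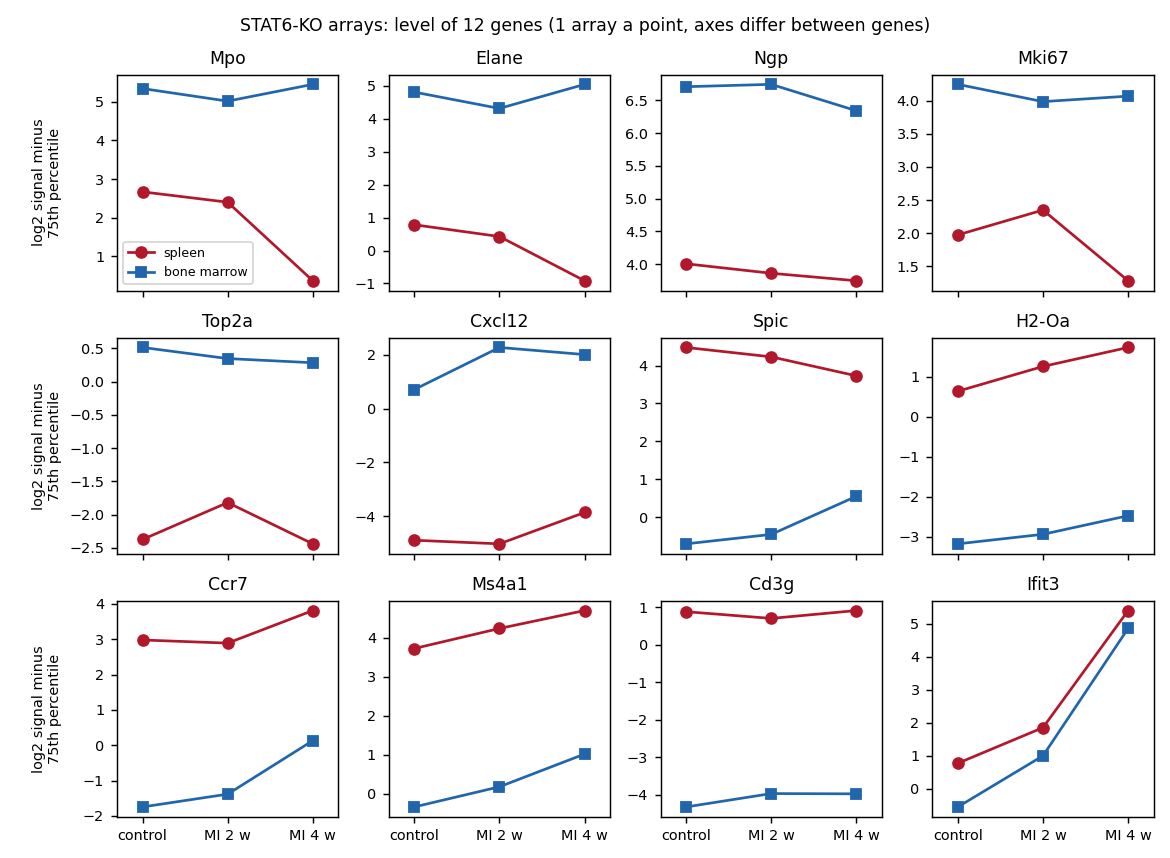
Level (log2 signal minus the 75th percentile of the array, y axis) of 12 genes on the 3 spleen (red circles) and 3 bone marrow (blue squares) STAT6-KO arrays at control, 2 weeks, and 4 weeks after MI, 1 array a point and no error bars. The 3 spleen arrays lie apart from the 3 bone marrow arrays for 11 of the genes, and for Ifit3 they overlap, with 5.41 in spleen and 4.86 in bone marrow at 4 weeks.

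Megakaryocyte and platelet genes were lower in spleen. Of 10 members 8 were lower and 0 higher, with a median of -2.37. Ppbp, which encodes a platelet chemokine, read -0.76, -0.62, and -0.08 in spleen and 3.48, 3.21, and 2.60 in bone marrow. The 2 sets of arrays lay far apart (-3.58, SE 0.35, adjusted p = 0.00525). Pf4, platelet factor 4, fell by 2.36 (SE 0.21, adjusted p = 0.00462) and Itga2b, the CD41 chain, by 1.76 (SE 0.20, adjusted p = 0.00633). Without the control pair 5 members were lower.

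Genes of bone marrow stroma and bone, which CD11b+ cells are not known to make in quantity apart from the osteoclast genes among them, had 7 of 14 members lower and 2 higher. Cxcl12, the chemokine with which stromal cells hold leukocytes in the marrow, read -4.89, -5.03, and -3.86 in spleen and 0.71, 2.27, and 2.01 in bone marrow. It was 76.4-fold lower in spleen (-6.26, SE 0.39, adjusted p = 0.00390). Igfbp5, which is not on the list and encodes an IGF-binding protein of stromal cells, had the largest fall of all named genes. It was not well above background on any spleen array and read -0.44, 0.47, and 0.51 in bone marrow, at least 118-fold higher in bone marrow (adjusted p = 0.00390). Col1a1, a collagen chain of bone, fell by 4.60 (SE 0.58, adjusted p = 0.00752), and its bone marrow array at 2 weeks (2.92) stood above the others (0.71 and 0.62). Lepr, which marks marrow stromal cells, did not pass (-0.31, SE 0.69, adjusted p = 0.750). Of its 3 dimmer probes, 1 gave -3.65, reading -6.23, -8.05, and -8.38 in spleen and -4.35, -3.26, and -4.11 in bone marrow, so the probes of Lepr disagreed. Alpl, which encodes an alkaline phosphatase of bone cells and neutrophils, was higher in spleen (2.01, SE 0.40, adjusted p = 0.0203). Of the stromal list, 5 genes were lower and 0 higher without the control pair. The summed signal of the list is the sum over members of signal divided by the 75th percentile of the array. It lay between 36.9 and 47.3 in spleen and between 20.5 and 45.0 in bone marrow. Most of the spleen sum came from the osteoclast gene Acp5, so the sum does not follow the stromal members. Acp5 read 5.48, 5.13, and 5.16 in spleen and 3.67, 4.00, and 3.26 in bone marrow. None of the 14 measured members was below background on every array of a tissue. The part of stromal cells in the marrow arrays was not tested.

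The other genes with the largest falls were of mixed kinds. Ebf3, Cyp1b1, Timp3, and Srpx2, which are expressed in stromal and mesenchymal cells, had differences between -5.90 and -4.77. Ebf3 was at least 13.3-fold, Cyp1b1 at least 9.87-fold, and Srpx2 at least 24-fold higher in bone marrow, since none of them was well above background on a spleen array. Has2, which encodes a hyaluronan synthase, fell by 4.91 (SE 0.40, adjusted p = 0.00438). Wfdc13, Olfr1466, Gm20755, and Gm17359 were also among the 15.

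Of 10 genes of B cell precursors 6 were lower and 1 was higher, with a median of -1.38. Rag1, the recombinase of lymphocyte precursors, was not well above background on any spleen array and read -3.64, -2.64, and -1.0 in bone marrow at control, 2 weeks, and 4 weeks. It was at least 18.7-fold higher in bone marrow (adjusted p = 0.00586). Vpreb1, a chain of the pre-B cell receptor, fell by 3.10 (SE 0.41, adjusted p = 0.00826) and was also highest in bone marrow at 4 weeks (1.47, against -1.08 and 0.06). Vpreb2 and Vpreb3 did not pass (0.82 and -0.01, adjusted p = 0.121 and 0.982), and Il7r, which precursors share with T cells, rose by 2.53 (SE 0.43, adjusted p = 0.0136). With the control pair left out, 5 members were lower and 0 higher.

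Red pulp macrophage genes were among the most uniform rises in STAT6-KO spleen. Of 20 members 17 were higher and 0 lower, with a median of 2.12. Spic, the transcription factor of red pulp macrophages, read 4.48, 4.23, and 3.73 in spleen against -0.71, -0.46, and 0.55 in bone marrow. It was 20.4-fold higher in spleen (4.35, SE 0.43, adjusted p = 0.00525). The adhesion molecule Vcam1 rose by 2.37 (SE 0.28, adjusted p = 0.00647) and Hmox1, which encodes heme oxygenase, by 2.28 (SE 0.34, adjusted p = 0.00998). In bone marrow Spic and Hmox1 were highest at 4 weeks. The list median of the pairs went from 2.72 at control to 2.14 at 2 weeks and 1.44 at 4 weeks, with 1 pair at each time. When the control pair was dropped, 5 of the 20 passed, all higher, and the median was 1.84. Genes of heme and iron handling followed in part, with 6 of 18 higher and 1 lower, against 1 and 0 without the control pair. The iron exporter gene Slc40a1 and the heme transporter gene Slc48a1 did not pass (0.71 and -1.03, adjusted p = 0.0946 and 0.0523). The lower member was Lcn2, a secondary granule gene that also binds iron carriers (-2.14, SE 0.29, adjusted p = 0.00832).

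Monocyte genes rose less. Of 14 members 7 were higher and 0 lower, with a median of 0.93. Csf1r, the receptor for M-CSF, rose by 0.98 (SE 0.28, adjusted p = 0.0498). Ccr2, by which monocytes leave the marrow, read 3.28, 3.38, and 2.82 in spleen and 2.98, 2.35, and 1.69 in bone marrow. The ranges overlapped, and the difference of 0.82 (SE 0.26, adjusted p = 0.0653) did not pass. Ly6c1 gave -0.93 (SE 0.29, adjusted p = 0.0627). The Ly6c genes are near copies of each other, so its probe may read both. In the 2 later pairs alone, 1 monocyte gene passed.

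Dendritic cell genes and the genes of MHC class II presentation were higher in STAT6-KO spleen. Of 14 dendritic cell genes 12 were higher and 0 lower (median 2.43), with 5 higher when the control pair was left out, and of 13 class II genes 13 were higher (median 2.43). Ccr7, which guides dendritic cells and lymphocytes to T cell zones, read 2.98, 2.89, and 3.81 in spleen and -1.75, -1.39, and 0.13 in bone marrow, a rise of 4.23 (SE 0.28, adjusted p = 0.00390). Flt3, the growth factor receptor of dendritic cells and progenitors, rose by 1.49 (SE 0.28, adjusted p = 0.0174). Xcr1, of cross-presenting dendritic cells, was not well above background in bone marrow and was at least 3.30-fold higher in spleen (adjusted p = 0.00497). Zbtb46, a factor of classical dendritic cells, did not pass on its brighter probe (0.55, SE 0.67, adjusted p = 0.556). On that probe the spleen array at 2 weeks (-2.28) lay below all others. Its dimmer probe gave 3.81, so the probes of Zbtb46 disagreed in size. The dimmer probe read -4.26, -3.82, and -2.94 in spleen and -8.55, -7.94, and -5.96 in bone marrow. It was well above background on 4 of the 6 arrays.

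The class II chain gene H2-Aa read 0.71, 0.96, and 1.90 in spleen and -1.53, -0.93, and -1.45 in bone marrow, a rise of 2.49 (SE 0.34, adjusted p = 0.00869). H2-Ab1 and H2-Eb1, its partner chain and a chain of the other class II molecule, rose by 1.30 (SE 0.29, adjusted p = 0.0272) and 1.36 (SE 0.35, adjusted p = 0.0377). The largest rise was that of H2-Oa (4.07, SE 0.21, adjusted p = 0.00390), whose product restrains peptide loading in B cells and some dendritic cells. Spleen was highest at 4 weeks for H2-Aa, H2-Ab1, H2-Eb1, and H2-Oa. B cells express all of these genes too. With normexp background correction 12 of the 13 passed and the median was 1.51, and without the control pair 6 passed, all higher.

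Class II promoters are shown because all members moved together and because their shared layout, an X box followed by a Y box, is known. The RefSeq table held promoters of 10 of the 13 genes. The X box was searched as AAC, then 2 bases of any kind, then ATGATG, and the Y box as ATTGG, both on either strand. The X box pattern was found in 4 of the 10 and in 0.137% of all promoters (45 of 32851). The Y box was found in 9 of the 10 and in 37.4% of all. Here too a gene was counted if any of its promoters matched, while the shares of all are per promoter, which favours the list. The X box pattern was written after these promoters had been read, so the count describes them and is no test. Capitals mark the X box and the Y box.
H2-Eb1 (chr17:34305758-34305856, + strand): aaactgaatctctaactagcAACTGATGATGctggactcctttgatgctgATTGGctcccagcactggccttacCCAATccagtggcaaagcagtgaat
H2-DMb1 (chr17:34153079-34153154, + strand): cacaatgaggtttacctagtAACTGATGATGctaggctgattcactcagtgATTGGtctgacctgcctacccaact
H2-DMb2 (chr17:34145108-34145183, + strand): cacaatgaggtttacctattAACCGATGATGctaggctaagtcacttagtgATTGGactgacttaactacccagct
H2-Ob (chr17:34238800-34238872, + strand): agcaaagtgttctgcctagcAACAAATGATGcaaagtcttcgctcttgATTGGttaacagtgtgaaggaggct
In each of the 4 an X box pattern stood upstream of a Y box. H2-DMb1 rose by 2.46 (SE 0.21), H2-DMb2 by 3.41 (SE 0.36), and H2-Ob by 3.50 (SE 0.22), with adjusted p of 0.00450, 0.00569, and 0.00390, besides H2-Eb1 above. A dimmer H2-Ob probe, well above background on all 6 arrays, rose by only 0.76. H2-DMb1 and H2-DMb2 lie side by side and are near copies, so their probes may share signal. Ciita, the activator that acts through these boxes, rose by 2.89 (SE 0.29, adjusted p = 0.00531).

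Lymphocyte genes, which are not those of the sorted cell type as a whole, gave some of the largest rises in STAT6-KO spleen. Of 15 B cell genes 13 were higher and 0 lower (median 1.85). Ms4a1, which encodes the CD20 protein of B cells, read 3.72, 4.24, and 4.70 in spleen and -0.34, 0.18, and 1.02 in bone marrow, a rise of 3.94 (SE 0.21, adjusted p = 0.00390). The tissues did not overlap. Cr2, the complement receptor of mature B cells and follicular dendritic cells, rose by 5.02 (SE 0.29, adjusted p = 0.00390). The summed signal of the B cell list was 70.9, 102, and 116 in spleen and 11.3, 15.9, and 28.3 in bone marrow at control, 2 weeks, and 4 weeks. It was lowest at control in both tissues. Of plasma cell genes, 4 of 9 were higher and 0 lower, and 1 was higher without the control pair, where the median was 0.70 against 1.15. The largest of these rises was that of Tnfrsf17, the BCMA receptor of plasma cells (2.84, SE 0.29, adjusted p = 0.00548), and Jchain, which joins antibody units, rose by 1.63 (SE 0.23, adjusted p = 0.00900).

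Of 16 T cell genes 12 were higher and 1 lower (median 3.26). Cd3g, a chain of the T cell receptor complex, read 0.88, 0.70, and 0.91 in spleen and -4.32, -3.97, and -3.97 in bone marrow, a rise of 4.92 (SE 0.22, adjusted p = 0.00390). Tcf7, a transcription factor of T cells, rose by 5.32 (SE 0.30, adjusted p = 0.00390). Cd3d and Cd3e, which encode other chains of the same complex, did not follow. The probe of Cd3d was lower in spleen (-1.42, SE 0.26, adjusted p = 0.0168), and Cd3e differed by 0.61 (SE 0.26, adjusted p = 0.133). Of 14 genes of NK cells and cytotoxic lymphocytes 11 were higher and 0 lower (median 2.73). Klrg1, a receptor of mature NK and T cells, rose by 4.92 (SE 0.27, adjusted p = 0.00390), Klrd1, the CD94 receptor, by 3.30 (SE 0.20, adjusted p = 0.00390), and Ncr1, the NK cell receptor NKp46, by 2.85 (SE 0.26, adjusted p = 0.00467).

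Each of these lists was well above background in bone marrow as well. None of the B, T, or NK cell genes was below background on all arrays of a tissue. Summed signals lay between 43.9 and 45.0 in spleen and between 17.4 and 18.6 in bone marrow for T cell genes, and between 13 and 33.1 and between 4.91 and 7.03 for NK cell genes. The part of sorted lymphocytes in the rises of class II, dendritic cell, and chemokine receptor genes was not tested. Without the control pair 5 of 15 B cell, 10 of 16 T cell, and 10 of 14 NK cell genes passed, all of them higher.

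**Figure D3:**
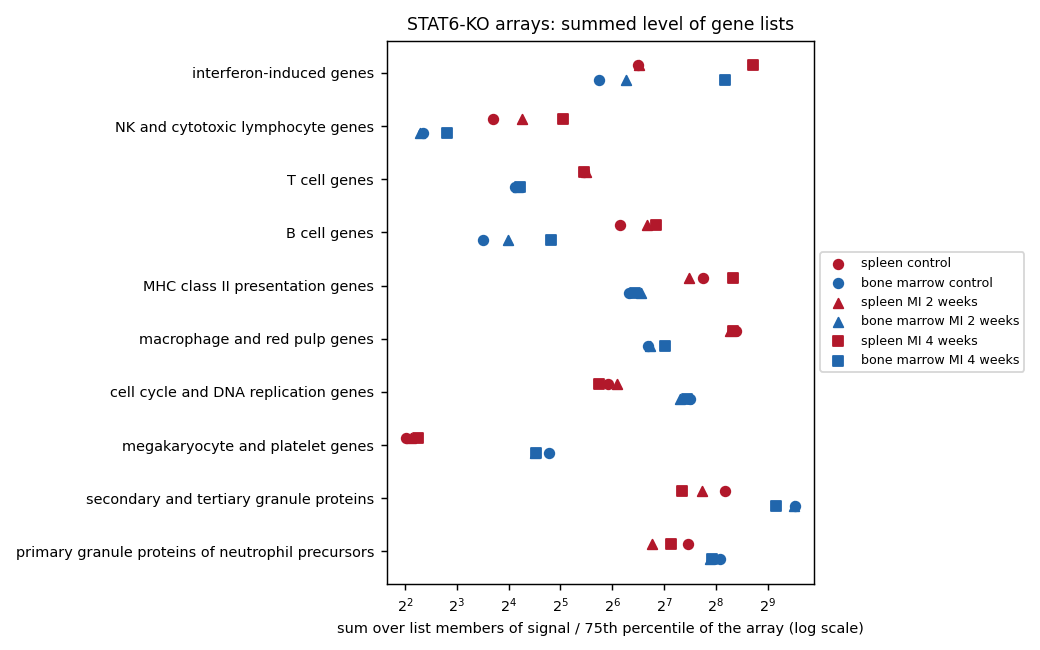
Sum over list members of the spot signal divided by the 75th percentile of the array (x axis, log scale to base 2) for 10 gene lists (rows) on each STAT6-KO array, spleen in red and bone marrow in blue, with circles for control, triangles for 2 weeks, and squares for 4 weeks. Interferon-induced genes span 90.1 to 420 in spleen and 53.9 to 288 in bone marrow, and the 4 week arrays are the highest of both.

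Among the 15 largest single rises, Icos, a co-stimulator of T cells, rose by 5.86 (SE 0.26), and Dapl1, a gene of naive T cells, and Camk4, a T cell kinase, were at least 46.4-fold and 48.7-fold higher in spleen, since neither was well above background in bone marrow. Dtx1, a Notch target of marginal zone B cells, rose by 6.42 (SE 0.34). Adamdec1, a protease of macrophages, read 3.99, 3.70, and 3.48 in spleen and -1.85, -2.46, and -2.60 in bone marrow (6.03, SE 0.21). For all 5 the adjusted p was 0.00390, the smallest value given by the fit, and the tissues lay apart. Adam23 was not well above background in bone marrow and was at least 59.1-fold higher in spleen. Kcnj16, a potassium channel gene, rose by 6.99 (SE 0.39) and was lowest in spleen at 4 weeks (1.37, against 2.63 and 2.68). The others were Cpne4, Tdrp, Cyp3a11, Mcf2, Raver2, Gp2, Sucnr1, and Cyp3a44. Of these 8, Cpne4 was at least 49.4-fold and Tdrp at least 49.7-fold higher in spleen.

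Basophil, eosinophil, and erythroid genes did not move as 1 block. Of 13 tested basophil and mast cell genes 6 were lower and 1 was higher (median -1.18), against 2 and 0 without the control pair (median -0.74). Mcpt8 and Prss34, proteases of basophils, fell by 2.90 (SE 0.43, adjusted p = 0.0102) and 3.69 (SE 0.52, adjusted p = 0.00910), whereas Il4, the cytokine that signals through STAT6, was higher in spleen (1.51, SE 0.39, adjusted p = 0.0383). Of 10 eosinophil genes 2 were lower and 1 was higher, and 0 passed without the control pair. Epx, the peroxidase of eosinophils, read -6.03, -2.42, and -6.26 in spleen and -0.61, -0.69, and -0.20 in bone marrow (-4.41, SE 0.88, adjusted p = 0.0202). Prg2, the major basic protein, read -2.11, 1.84, and -2.93 in spleen, and its difference of -3.50 (SE 1.04, adjusted p = 0.0553) did not pass. In both, the spleen array at 2 weeks stood above the other spleen arrays by more than 3. The eosinophil chemokine receptor gene Ccr3 rose by 2.29 (SE 0.31, adjusted p = 0.00846).

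Of 17 erythroid genes 2 were higher, 3 were lower, and 12 did not pass, with 0 higher and 1 lower when the control pair was left out. The median of the pairs was 0.59 at control, 0.10 at 2 weeks, and -1.57 at 4 weeks. The median over the pairs was -0.51, and 0.14 without the 4 week pair. Alas2, the enzyme that starts heme synthesis in red cell precursors, read 0.19, 0.54, and -0.63 in spleen and -2.58, -2.63, and -1.09 in bone marrow (2.13, SE 0.57, adjusted p = 0.0432). Rhag, a membrane protein of red cells, fell by 2.20 (SE 0.25, adjusted p = 0.00607). Among 12 tested genes of splenic stroma and endothelium, 2 were higher and 3 were lower, against 1 and 1 without the control pair. Stab2, a scavenger receptor of sinus endothelium, rose by 3.16 (SE 0.28, adjusted p = 0.00467), and Pdpn, of reticular stroma and also of bone cells, fell by 2.97 (SE 0.29, adjusted p = 0.00505).

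The receptor pathway of IL-4 and IL-13, whose signal ends at STAT6, differed little between the tissues. Of 12 genes 1 was higher and 1 was lower, with a median of 0.21, against 0 and 1 without the control pair. Il4ra, the receptor chain shared by both cytokines, read 0.69, -0.79, and 1.04 in spleen and -1.82, -2.24, and -2.99 in bone marrow (2.66, SE 0.51, adjusted p = 0.0187). Another Il4ra probe, which was dimmer, gave the opposite sign (-1.21), and without the control pair Il4ra did not pass. Irs1, an adaptor of this receptor, fell by 2.62 (SE 0.29, adjusted p = 0.00602). Il13ra1 and Stat6 did not pass (0.51 and 0.03, adjusted p = 0.442 and 0.931).

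Genes known as type 2 targets of STAT6 were measured in mice without it, and 10 of 18 tested were higher and 2 lower in spleen (median 1.06). Mrc1, the mannose receptor of macrophages, rose by 2.54 (SE 0.34, adjusted p = 0.00824), and Tgm2, a transglutaminase, by 3.33 (SE 0.26, adjusted p = 0.00436). Retnla, a secreted protein of type 2 macrophages, read -0.89, -1.78, and -1.04 in spleen and -2.51, -2.64, and -3.30 in bone marrow (1.58, SE 0.32, adjusted p = 0.0217). Chil3, which neutrophil precursors also make, fell by 1.55 (SE 0.26, adjusted p = 0.0132). Several are macrophage genes by their known expression, and the red pulp list moved with them. Arg1, the best known of them, was well above background on 1 of the 6 arrays and was not tested, and Ccl22 was on none. With the control pair left out, 2 of the 18 passed, both higher.

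Of 16 genes of the STAT and SOCS families 4 were higher and 1 lower, against 1 and 0 without the control pair. Stat4, the factor of IL-12 signals in T and NK cells, rose by 1.26 (SE 0.27, adjusted p = 0.0237). Socs2, a feedback inhibitor of cytokine receptors, rose by 2.53 (SE 0.28, adjusted p = 0.00604), and Pias3, an inhibitor of STAT3, fell by 1.81 (SE 0.31, adjusted p = 0.0137). Stat2 and Stat3 did not pass (0.58 and 0.37, adjusted p = 0.111 and 0.308).

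Inflammatory cytokines and their receptors had 9 of 22 members higher and 2 lower in spleen (median 0.53). Il18, a cytokine that drives interferon-gamma release, read 2.96, 3.34, and 2.88 in spleen and -0.08, 0.29, and 1.00 in bone marrow, 6.30-fold higher in spleen (2.65, SE 0.32, adjusted p = 0.00685). Il1a read -3.32, -3.47, and -3.82 in spleen and -5.99, -5.78, and -5.62 in bone marrow, 4.80-fold higher (2.26, SE 0.26, adjusted p = 0.00616). Neither gene overlapped between the tissues. Ifng, a product of NK and T cells, rose by 4.07 (SE 0.29, adjusted p = 0.00394), and Il18rap, a chain of the IL-18 receptor, fell by 1.44 (SE 0.22, adjusted p = 0.0106). Il6 (0.65, SE 0.20, adjusted p = 0.0638), Tgfb1 (-0.55, SE 0.22, adjusted p = 0.117), and Il1b (0.41, SE 0.38, adjusted p = 0.430) did not pass. When the control pair was dropped, 2 of the 22 were higher and 0 lower. Of 14 genes of the beta-adrenergic receptor pathway 1 was higher and 2 were lower. Leaving out the control pair left 0 of these calls, and averaging the probes of each gene gave 2 higher. The 3 called genes were Pde4b, a cAMP phosphodiesterase (1.39, SE 0.30, adjusted p = 0.0252), Arrb2, an arrestin that ends receptor signals (-1.69, SE 0.24, adjusted p = 0.00894), and Adcy9, an adenylyl cyclase (-1.16, SE 0.25, adjusted p = 0.0242).

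Chemokine receptors and retention molecules had 9 of 20 members higher and 2 lower (median 0.98), against 6 and 0 without the control pair. Ccr6, a receptor of B cells and some dendritic cells and T cells, read 2.58, 2.87, and 2.90 in spleen and -2.74, -2.65, and -2.77 in bone marrow, 45.3-fold higher in spleen (5.50, SE 0.21, adjusted p = 0.00390). Cxcr3, of activated T and NK cells, rose by 2.47 (SE 0.28, adjusted p = 0.00632), and S1pr4, a sphingosine phosphate receptor of leukocytes, fell by 1.42 (SE 0.21, adjusted p = 0.00978). Of 19 tested chemokine genes 6 were higher and 4 lower, against 3 and 2 without the control pair. Ccl5, a product of T and NK cells and of macrophages, rose by 3.76 (SE 0.22, adjusted p = 0.00390), while Ccl2, Ccl3, and Ccl4 differed by between -0.26 and 0.19 and did not pass. Of 17 Toll-like receptor genes and partners 7 were higher and 2 lower, against 2 and 0 without the control pair. Tlr3, a receptor of double-stranded RNA, was not well above background in bone marrow and was at least 4.24-fold higher in spleen (adjusted p = 0.00463), and Tlr5, the flagellin receptor, fell by 1.69 (SE 0.24, adjusted p = 0.00926). Of 11 Fc receptor genes 4 were higher and 2 lower, against 1 and 0 without the control pair. The extremes were Fcmr, the IgM receptor of B cells, at 4.06 (SE 0.31, adjusted p = 0.00419) and Fcer1a, of basophils, at -1.84 (SE 0.24, adjusted p = 0.00801).

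Interferon-induced genes differed more between time points than between tissues. Of 14 members 3 were higher in spleen and 0 lower (median 0.49), and 0 passed without the control pair. Ifit3 read 0.77, 1.85, and 5.41 in spleen and -0.56, 1.00, and 4.86 in bone marrow at control, 2 weeks, and 4 weeks (0.91, SE 0.25, adjusted p = 0.0440). The 4 week arrays were the highest in both tissues by more than 3. Ifit1 and Ifit2 did not differ beyond their spread (0.25 and 0.21, adjusted p = 0.381 and 0.654), and Ifi44 rose by 1.66 (SE 0.22, adjusted p = 0.00815). Time points had 1 array each, so no test of time was made. Of 21 immediate early genes, which respond within minutes to a stimulus or to handling, 6 were higher and 1 lower, against 2 and 1 without the control pair. Dusp2 rose by 2.55 (SE 0.24, adjusted p = 0.00490), Fosb by 2.16 (SE 0.28, adjusted p = 0.00813), and Fosl1 fell by 2.02 (SE 0.43, adjusted p = 0.0236). Fos itself did not pass (0.61, SE 0.27, adjusted p = 0.139). The part of handling in these values was not tested.

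The tissue difference of STAT6-KO mice was then set against that of WT mice at the same time points. Of 26613 genes tested, 40 (0.150%) differed at an adjusted p under 0.05 (limma on the paired differences), 1 with a higher and 39 with a lower spleen minus bone marrow difference in STAT6-KO, and 3556 (13.4%) did at an unadjusted p under 0.05. None of the 40 was a member of the lists. The count fell to 0 with normexp background correction, to 2 with quantile normalization, and to 0 when any 1 of the pairs was left out, the control, 2 week, or 4 week pair. Of the 40, 39 had a level below 0 in the tissue where they were higher, with a median of -3.91 against -1.43 for all tested genes. No list member can thus be called different between the genotypes.

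In size, 68.4% of all tested genes had a larger tissue difference, up or down, in STAT6-KO than in WT mice. These genes had to be well above background on STAT6-KO arrays, with no such demand on WT arrays, which favours STAT6-KO. Their median difference was -0.06 in WT against -0.26 in STAT6-KO, and the latter depends on the scaling. The share and the list counts that follow were taken with the main scaling only. Among the lists it was larger for 25 of 25 cell cycle genes, for 15 of 15 B cell genes, for 11 of 12 secondary and tertiary granule genes, and for 18 of 20 red pulp macrophage genes. It was larger for only 3 of 10 B cell precursor genes, 5 of 12 IL-4 and IL-13 pathway genes, 6 of 14 NK cell genes, and 8 of 16 mature neutrophil genes. The difference was larger in STAT6-KO for 87.9% of all genes past the threshold in STAT6-KO. Those genes were chosen by their STAT6-KO difference, which raises this share, so it is no test. Counts of lists with many such genes are to be read against it. The median of cell cycle genes was -0.98 in WT against -2.0 in STAT6-KO, and 7 of the 25 differed at an unadjusted p under 0.05. That of B cell genes was 0.88 against 1.85, with 7 of 15, and that of secondary and tertiary granule genes was -1.28 against -2.13, with 4 of 12. T cell genes had medians of 2.83 and 3.26, with 4 of 16, and NK cell genes had 2.71 and 2.73, with 1 of 14. The list of type 2 targets had medians of 0.68 and 1.06, with 7 of 19. Mice of the genotypes were on different slides, so genotype and slide cannot be told apart.

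**Figure D4:**
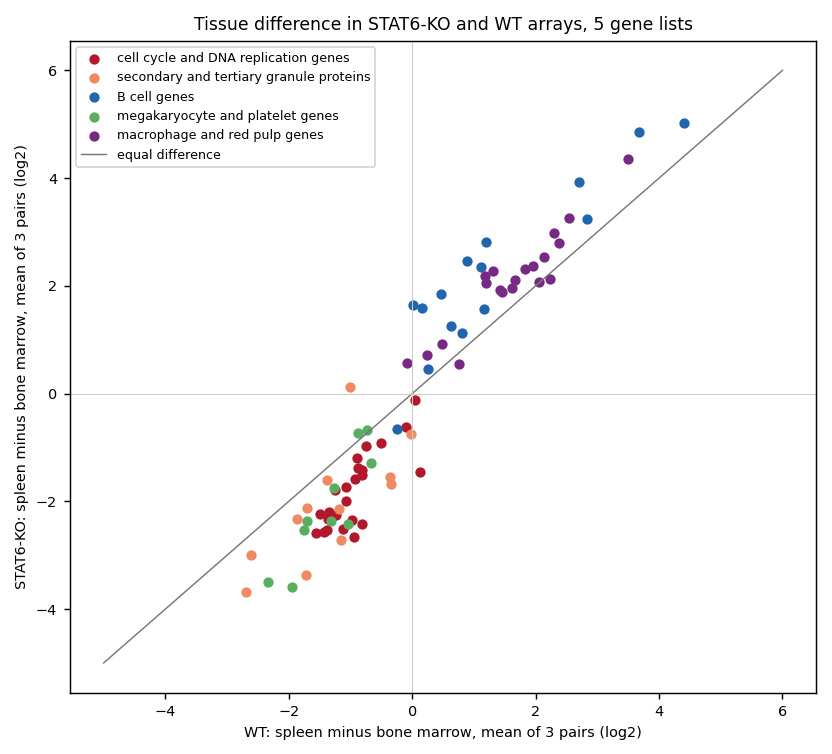
Spleen minus bone marrow difference (log2, mean of 3 pairs) in WT arrays (x axis) and STAT6-KO arrays (y axis) for the tested members of 5 gene lists, 1 point a gene, with the line of equal differences. Cell cycle genes lie below the line in 25 of 25 cases and B cell genes above it in 14 of 15, and none of these genes passed the test of the difference between genotypes after adjustment.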

How the data were processed

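CD11b+ cells of spleen and bone marrow were profiled on one-colour Agilent mouse arrays, 1 array per condition with cells pooled from 5 mice. The authors deposited the scanner output of Feature Extraction 11.0.1.1, whose processed signal is a spot intensity after background subtraction and spatial detrending, not scaled between arrays. The labels also name GCRMA and the methods name Genespring, but no output of either was used here. Control spots and outlier flags were left out. Each processed signal was turned into log2 and the 75th percentile of its array was subtracted. Spots of a probe were averaged, and the probe with the highest mean stood for its gene. Genes well above background on at least 3 of the 6 arrays were tested.

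STAT6-KO spleen was compared with STAT6-KO bone marrow with the time point as the pair (limma 3.58.1 in R 4.3.3, Benjamini-Hochberg adjusted p under 0.05), and the paired differences were compared with those of WT in the same way. An exact sign-flip test over 3 pairs cannot give a p below 0.25. Where a gene was not well above background on any array of a tissue, a lower bound of the fold is given. The number of arrays limits the precision. The analysis was tested on simulated data. Named genes were the 15 largest rises and falls, the first 3 measured members and the called extremes of each list, the 8 largest differences from WT in each direction, and genes the study names. A few named items are not reported here. Other genes named were chosen after their values were seen. Members, lists, and motifs were chosen with earlier results of these data known. Alternatives covered background correction, normalization, filters, choice of probe, each pair left out, the fit without pairs, added arrays, and the methods' t-test with a fold change over 2. Gene names and promoters came from RefSeq tables on GRCm38.p6, and no coordinate of the array design was used.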

Additional observations from a re-analysis of the deposited data

Results flagged for a closer look

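The spleen minus bone marrow difference itself differed between STAT6-KO and WT mice for 40 genes at an adjusted p under 0.05 (limma on the paired differences), of which 22 had a symbol and 39 had a lower difference in STAT6-KO. No time point was repeated, and 16 of the 40 were not well above background on any STAT6-KO spleen array, against 12 that were on all 6. The difference between the genotypes (log2) was -5.67 for Ano7, -5.43 for Tmem100, -4.76 for Trim30e-ps1, -4.76 for Vmn1r84, -4.44 for Mageb16, -4.37 for Olfr394, -4.32 for Vmn1r34, and -4.31 for 1700012P22Rik. Of these 8, all but Mageb16 were not well above background on any STAT6-KO spleen array, so their sizes rest on signals at the background and give no order. Btnl5-ps was the gene with the opposite sign, at 2.26 (adjusted p = 0.0305). Mageb16 read -5.12, -5.10, and -5.79 in STAT6-KO spleen and -1.55, -1.07, and -1.38 in STAT6-KO bone marrow (adjusted p = 0.0238), and its tissue difference in WT was 0.43. Genotype and slide cannot be told apart here.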

How the results depend on the processing

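Of the pairs, the control pair moved the counts of 3250 higher and 5478 lower genes most. With each pair left out in turn, between 731 and 2968 genes were higher, between 1071 and 5914 were lower, and between 1802 and 8882 passed in all, the lowest of each without the control pair. With normexp background correction 3225 were lower. The methods' t-test with a fold change over 2 gave 1931 higher and 3089 lower (5020 in all) after Benjamini-Hochberg adjustment. Paired by time point it gave 3315 lower of 5490 in all, and 0 higher and 0 lower (0 in all) after adjustment. With the same adjustment and fold change, limma on the same pairs gave 2688 higher and 4549 lower (7237 in all). Limma left 12102 genes below an unadjusted p of 0.05 with no limit on the fold change. The 40 genes that differed from WT became 0 with normexp background correction, 2 with quantile normalization, 101 with median scaling, 2 when well above background on every array was required, 0 without any 1 of the pairs, 214 with the HDC-KO pairs added, 17 with the WT pair at 1 week added, and 0 with time point as a term. The cause was not tested.

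The time points were checked as a pairing of the arrays. Deviations of the arrays of the same time correlated at 0.39 for control, -0.13 for 2 weeks, and 0.03 for 4 weeks, so the pairs did not all deviate together over all genes, although interferon-induced genes were highest at 4 weeks in both tissues. Without the replicate block 9752 genes passed between the tissues and 144 in the comparison with WT, and the interferon-induced genes called went from 3 to 0. Of 130 named genes that passed, 84 did so without the control pair and 123 without either other pair. None of the 130 turned in sign in an alternative that gave it 1 value per gene. Single probes were not part of that check, and the dimmer Il4ra probe had the opposite sign (-1.21). Of the 130, 99 could be tested when every array had to be well above background. The erythroid median turned from -0.51 to 0.14 without the 4 week pair and to 0.22 with the 1 week spleen array added, and that of 4 Y-linked genes from 0.18 to -0.27 without the 4 week pair, to -0.05 with the filter on every array, and to -0.01 with probes averaged.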
